A study of Bos taurus and other sequences with 9 samples.

Results

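The microRNAs (miRNAs) described here are hsa-miR-16-5p, hsa-miR-15a-5p, hsa-miR-15b-5p, hsa-miR-103a-3p and hsa-miR-107. They were chosen by name as the families of miR-15 and miR-16 and of miR-103 and miR-107, and they are 5 of the 425 miRNAs of the deposited tables. miR-16-5p and miR-103a-3p were among the more abundant miRNAs of FBS, and the others were present at a few percent of the level of miR-16-5p. Every one of the 5 was found in FBS, SBI-dFBS and UC-dFBS, whereas in UF-dFBS and StemPRO only miR-16-5p was above 1 spike-in normalized count, the level that the methods call moderate abundance.

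A miRNA guides silencing proteins to messenger RNAs through its seed, a short stretch near its 5′ end. miR-15a, miR-15b and miR-16 share a seed and are made from clustered precursors, and miR-16 is abundant in blood cells, red cells among them. miR-103a and miR-107 come from introns of the pantothenate kinase genes, have a related seed that is offset by a single base, and are known for their part in insulin signalling and in the control of Dicer. The mature forms of miR-103a-3p and miR-107 are nearly identical, so that reads cut short at the 3′ end cannot be assigned to either with certainty. Reads of miR-16-5p from its different precursors cannot be told apart at all.

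Small RNA of extracellular vesicle (EV) preparations was sequenced from 9 samples of 5 cell-free media, with 2 samples of each serum-based medium and 1 of StemPRO. The serum-based media were DMEM/F12 with fetal bovine serum, a culture supplement, and antibiotics: untreated FBS, FBS depleted of EVs by ultracentrifugation (UC-dFBS) or by ultrafiltration (UF-dFBS), and commercial EV-depleted FBS (SBI-dFBS). Sample 1 of FBS and of its depleted forms UC-dFBS and UF-dFBS came from a serum of Sigma-Aldrich and sample 2 from a serum of Gibco. SBI-dFBS-1 and -2 were separate lots of System Biosciences. The untreated serum behind SBI-dFBS was not sequenced, so that its depletion and its starting serum cannot be told apart. StemPRO was a serum-free medium of Gibco for mesenchymal stem cells, so it had no serum in common with the others and no replicate. Samples of a medium thus differ in serum or lot, and p-values measure the spread between these samples. Paired values are given with sample 1 first. The names are those of human miRNAs, although the serum is bovine.

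The miRNA counts of a sample ranged from 937 in UF-dFBS-2 and 1438 in StemPRO to 203755 in FBS-1. Levels are given as spike-in normalized counts, in which the authors divided each count by a factor from synthetic RNAs added to the sample. A spike-in unit held between 3.78 and 108 counts. The limit set by a count of 0, taken as 3 counts, was therefore between 0.0278 spike-in normalized counts in StemPRO and 0.794 in SBI-dFBS-2. Intervals and limits cover counting error only. A lower level can mean fewer vesicles, less RNA in each or less RNA outside vesicles, and these cannot be told apart here.

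miR-16-5p had the highest level of the 5 in every sample. Its level was 869.9 and 459 spike-in normalized counts in the FBS samples, 260.4 and 248 in those of SBI-dFBS, 60.4 and 36.2 in those of UC-dFBS, 1.07 and 1.21 in those of UF-dFBS, and 2.02 in StemPRO. The samples of the 4 serum-based media did not overlap and fell from FBS over SBI-dFBS and then UC-dFBS to UF-dFBS. StemPRO lay just above both samples of UF-dFBS. The mean level was 664.5 ± 290.6 (SD, n = 2) in FBS and 1.14 ± 0.0984 (SD, n = 2) in UF-dFBS, a 584-fold difference. The values rest on 4214 and 3422 counts in FBS but on 59 and 29 counts in UF-dFBS. Among all miRNAs of a sample, miR-16-5p ranked 9 and 7 in FBS, 2 and 6 in SBI-dFBS, 14 in both samples of UC-dFBS, 8 and 5 after ultrafiltration, and 2 in StemPRO.

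miR-15b-5p was far less abundant than miR-16-5p, with which it shares its seed. Its level was 19.8 and 9.66 spike-in normalized counts in the FBS samples, 5.53 and 3.18 in those of SBI-dFBS, 1.07 and 1.03 in those of UC-dFBS, 0 in both samples of UF-dFBS, and 0.0278 in StemPRO. As for miR-16-5p, the samples of the media did not overlap. The mean was 14.7 ± 7.18 (SD, n = 2) in FBS, and with the limit of 3 counts per sample miR-15b-5p was at least 164.5-fold lower in UF-dFBS. Without FBS-1 this bound was 107.8-fold. The UC-dFBS values stand on 7 counts in each sample and the StemPRO value on 3 counts.

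miR-15a-5p was the least abundant of the 5 in FBS, and between the sera its levels in FBS differed most of the 5 as a ratio. Its level was 12.4 and 3.62 spike-in normalized counts in the FBS samples, 4.09 and 4.50 in those of SBI-dFBS, 1.38 and 1.32 in those of UC-dFBS, and 0 in both samples of UF-dFBS and in StemPRO. Both samples of SBI-dFBS thus lay between those of FBS, whereas UC-dFBS lay below them. The mean in FBS was 8.004 ± 6.20 (SD, n = 2), so that miR-15a-5p was at least 89.3-fold lower in UF-dFBS and at least 288-fold lower in StemPRO. Without FBS-1 these bounds were 40.4-fold and 130.4-fold, and without FBS-2 138-fold and 446-fold. In UC-dFBS it was found with 9 counts in each sample.

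miR-103a-3p was the second most abundant of the 5 in the serum-based media other than UF-dFBS. Its level was 209 and 113 spike-in normalized counts in the FBS samples, 22.8 and 39.7 in those of SBI-dFBS, 28.5 and 19.6 in those of UC-dFBS, 0.0905 and 0.167 in those of UF-dFBS, and 0.0926 in StemPRO. SBI-dFBS and UC-dFBS overlapped, and StemPRO lay between the samples of UF-dFBS. The mean fell from 161 ± 67.6 (SD, n = 2) in FBS to 0.129 ± 0.0537 (SD, n = 2) in UF-dFBS, a 1254-fold difference that rests on 5 and 4 counts in UF-dFBS.

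miR-107 changed least of the 5 between FBS and UC-dFBS. Its level was 23.5 and 14.5 spike-in normalized counts in the FBS samples, 8.07 and 11.9 in those of SBI-dFBS, 6.12 and 6.01 in those of UC-dFBS, 0.109 and 0.0416 in those of UF-dFBS, and 0.00926 in StemPRO. The samples of the 4 serum-based media did not overlap. The mean was 19.0 ± 6.40 (SD, n = 2) in FBS and 6.06 ± 0.0773 (SD, n = 2) in UC-dFBS. In UF-dFBS it stands on 6 counts and 1 count, and in StemPRO on 1 count.

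**Figure D1:**
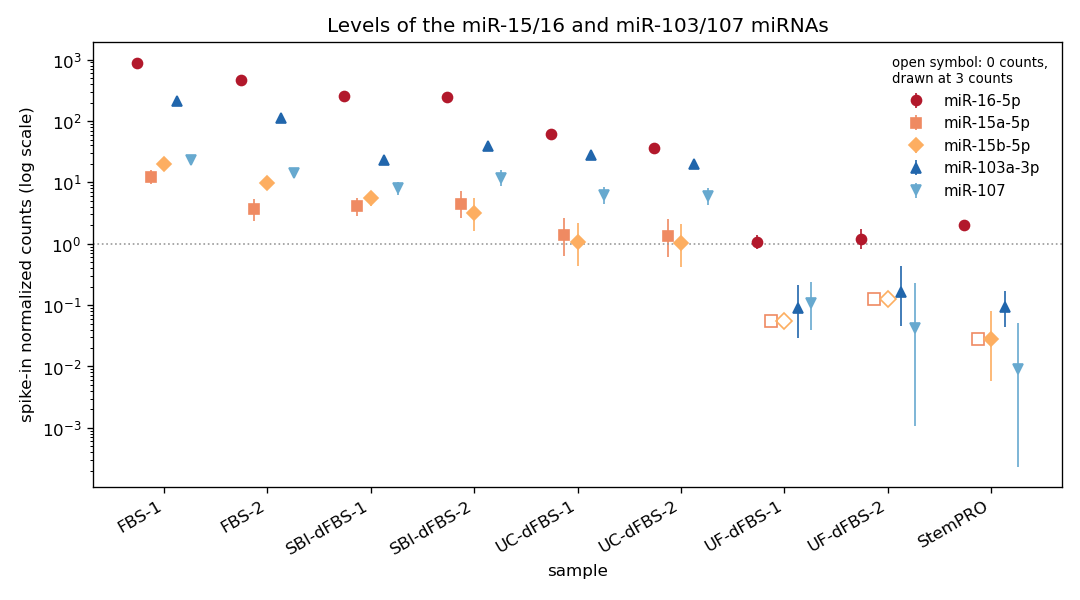
Spike-in normalized counts (log scale) of the 5 miRNAs in each of the 9 samples, with exact Poisson 95% intervals of the counts. Open symbols are counts of 0 drawn at 3 counts, and the dotted line marks 1 spike-in normalized count, above which only miR-16-5p lies in UF-dFBS (1.07 and 1.21) and StemPRO (2.02).

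In FBS the order of the mean levels was miR-16-5p, miR-103a-3p, miR-107, miR-15b-5p and miR-15a-5p. Each FBS sample had this order. Across the FBS samples, the ranges of neighbours overlapped for miR-107 and miR-15b-5p and for miR-15b-5p and miR-15a-5p, but not for the more abundant members. In SBI-dFBS-2 and in both UC-dFBS samples miR-15a-5p was above miR-15b-5p. Across the 5 together, the mean sum was 867 ± 378 spike-in normalized counts in FBS. It was 304 ± 4.60 in SBI-dFBS, 80.8 ± 23.5 after ultracentrifugation and 1.34 ± 0.105 after ultrafiltration (SD, n = 2 each), and the sum was 2.15 in StemPRO. Set against FBS, the sum was at 35.1% in SBI-dFBS, 9.32% after ultracentrifugation, 0.155% after ultrafiltration and 0.248% in StemPRO. The total of all miRNAs was at 43.9%, 19.8%, 0.196% and 0.0453% of FBS in the same media. These values depend on the FBS sample, and with the means set against FBS-2 alone they were 77.4%, 34.8%, 0.345% and 0.0798%. For UC-dFBS and UF-dFBS this mixes the sera. Within the Sigma and Gibco sera, 18.5% and 23.1% were left after ultracentrifugation, and 0.181% and 0.234% after ultrafiltration.

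The level of each miRNA was compared between media with edgeR's quasi-likelihood test on the counts, with library sizes set by the spike-ins. The fit held the 8 serum-based samples and the 163 miRNAs with at least 10 counts in at least 2 of them, and all 5 members passed this filter. Its only term was the medium, so that the pairing by serum was not used and differences between the sera counted as spread. A miRNA was called where the p adjusted over the 163 miRNAs by the Benjamini-Hochberg method was below 0.05. The SE of a change in edgeR was derived from the test, as the size of the change divided by the square root of the F statistic. It is therefore no measure of precision apart from the test.

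In SBI-dFBS only miR-103a-3p was called lower, 1 of the 5, where 44.2% of the 163 miRNAs were called lower. It fell by 2.37 on the log2 scale (SE 0.64, edgeR adjusted p = 0.00164). The change of miR-16-5p was -1.39 (SE 0.76, edgeR adjusted p = 0.112) and that of miR-15b-5p -1.73 (SE 0.79, edgeR adjusted p = 0.0584). miR-107 and miR-15a-5p had changes of -0.93 and -0.89 with edgeR adjusted p of 0.242 and 0.347. The median over the 5 was -1.39, and over all miRNAs tested it was -1.70. The call of miR-103a-3p was lost without FBS-1 (adjusted p = 0.0516) or without SBI-dFBS-1 (adjusted p = 0.113).

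In UC-dFBS all 5 were called lower, where 90.8% of the miRNAs tested were. miR-15b-5p and miR-16-5p fell by 3.80 (SE 0.89) and 3.78 (SE 0.83) on the log2 scale, with edgeR adjusted p of 0.000131 and 6.78e-05. They stood at places 14 and 15 among the 163 when these were ordered from the largest decrease. miR-103a-3p fell by 2.74 (SE 0.65, edgeR adjusted p = 0.000139) and miR-15a-5p by 2.55 (SE 0.89, edgeR adjusted p = 0.00674). miR-107 fell by 1.64 (SE 0.70, edgeR adjusted p = 0.0230), which put it at place 152. The median over the 5 was -2.74, beside -2.70 over all. The calls of miR-15a-5p and miR-107 were lost without FBS-1, UC-dFBS-1 or UC-dFBS-2, with adjusted p between 0.0567 and 0.171.

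In UF-dFBS all 5 were called lower than in FBS, where 98.2% of the miRNAs tested were, and all 5 were called lower than in UC-dFBS, where 93.9% were. Against FBS, the log2 change was -10.29 for miR-103a-3p (SE 0.93, edgeR adjusted p = 8.32e-25), -9.18 for miR-16-5p (SE 1.06, edgeR adjusted p = 1.13e-16) and -7.70 for miR-107 (SE 0.94, edgeR adjusted p = 2.34e-15). miR-15b-5p and miR-15a-5p, at 0 in UF-dFBS, had edgeR adjusted p of 1.64e-15 and 9.9e-13, and their sizes are given only as the bounds above. With the miRNAs at 0 in UF-dFBS set to their bound, 43 of the 163, the median was -7.66 over all and -7.70 over the 5. The fitted medians, in which the values of miRNAs at 0 depend on a prior count, were -8.67 and -9.87. Against UC-dFBS the changes were -5.40 for miR-16-5p, -6.05 for miR-107 and -7.55 for miR-103a-3p, beside a median over all of -5.14 with the miRNAs at 0 set to their bound and of -5.83 from the fit.

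These calls rest on the spike-ins. With TMM, which scales samples so that most miRNAs do not change, none of the 5 was called in any of these comparisons. The numbers of all miRNAs called lower and higher were then 7 and 3 for SBI-dFBS, 0 and 0 for UC-dFBS and 10 and 12 for UF-dFBS against FBS, in place of 72 and 2, 148 and 0, and 160 and 0. The median change over all miRNAs in UF-dFBS was -0.59 with TMM.

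**Figure D2:**
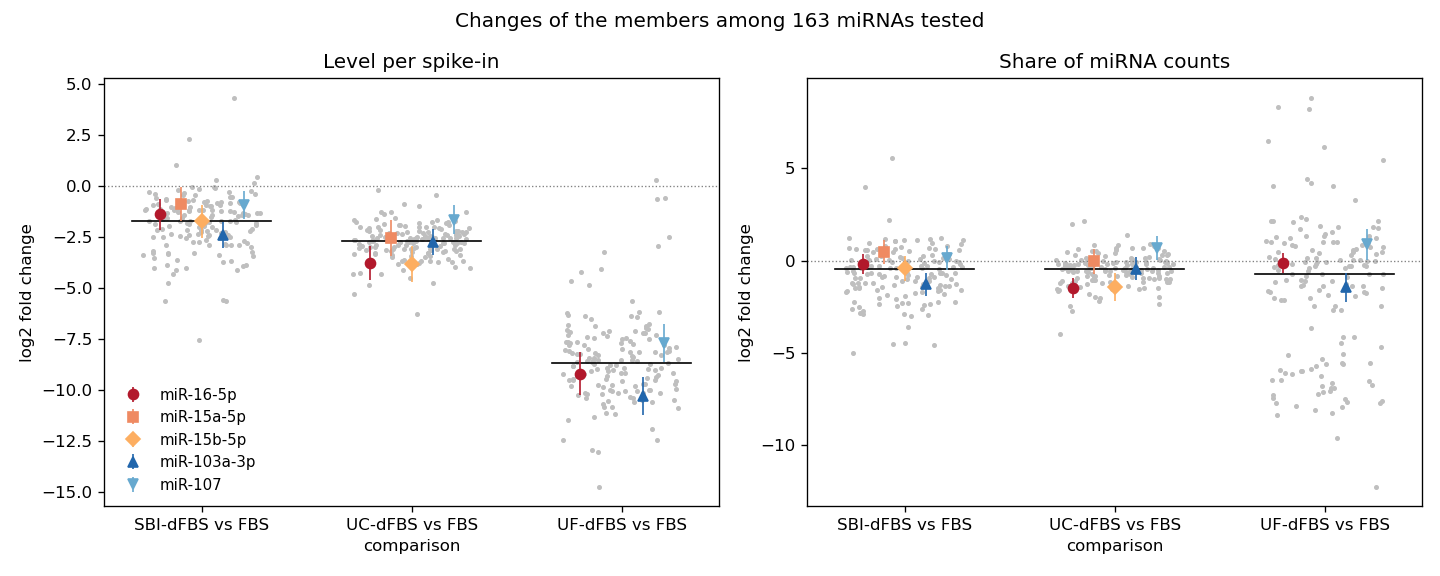
The log2 fold change against FBS in edgeR of the 5 miRNAs (coloured symbols) and of the other miRNAs tested (grey points). The median of all 163 is a black line. The level per spike-in is on the left and the share of miRNA counts on the right. Bars are SE derived from the test. miR-15a-5p and miR-15b-5p are not drawn for UF-dFBS, where both samples were at 0. The members lie on both sides of the median in each comparison, with miR-16-5p at -3.78 and miR-107 at -1.64 for the level in UC-dFBS.

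Since UC-dFBS and UF-dFBS were made from the same sera as FBS, the amount left was also computed within each serum. After ultracentrifugation, 6.95% (exact 95% interval of the count ratio 6.25 to 7.70%) of miR-16-5p was left in the Sigma serum and 7.89% (6.90 to 8.98%) in the Gibco serum. Of miR-103a-3p, 13.6% (11.6 to 15.9%) and 17.3% (14.3 to 20.8%) were left in the same sera. Of miR-107, 26.0% (17.7 to 37.6%) and 41.5% (28.2 to 59.9%) were left. Thus in both sera miR-16-5p was left in the smallest and miR-107 in the largest share of these 3 miRNAs, and their intervals did not overlap within a serum. For miR-15b-5p the share left was 5.40% (2.12 to 11.6%) and 10.6% (4.12 to 23.0%), and for miR-15a-5p it was 11.1% (4.85 to 22.5%) and 36.4% (15.1 to 79.8%). Of all miRNAs, 18.5% and 23.1% were left, which lay between the values of miR-103a-3p and miR-107.

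After ultrafiltration, 0.123% (0.0933 to 0.159%) of miR-16-5p was left in the Sigma serum and 0.263% (0.176 to 0.378%) in the Gibco serum. Of miR-103a-3p, 0.0433% (0.0140 to 0.101%) and 0.147% (0.0399 to 0.378%) were left. Of miR-107, 0.462% (0.166 to 1.04%) and 0.287% (0.00721 to 1.63%) were left. The intervals of these miRNAs overlapped in the Gibco serum, where the counts were fewest, whereas in the Sigma serum those of miR-107 lay above those of the other two. miR-15b-5p was at least 365-fold lower in the Sigma serum and at least 77.3-fold lower in the Gibco serum, and miR-15a-5p at least 228-fold and at least 29.0-fold lower. Of all miRNAs, 0.181% and 0.234% were left.

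To set the members against the whole of the miRNAs, their shares of the miRNA counts of each sample were compared. miR-16-5p held 2.07% and 2.75% of the counts in the FBS samples, 2.72% and 1.53% in those of SBI-dFBS, 0.778% and 0.940% in those of UC-dFBS, 1.40% and 3.09% in those of UF-dFBS, and 15.2% in StemPRO. UC-dFBS was below every other sample, and StemPRO stood far above all of them. The Wilson 95% confidence interval was 13.4 to 17.1% in StemPRO, 1.09 to 1.81% in UF-dFBS-1 and 2.16 to 4.41% in UF-dFBS-2. In StemPRO the high share came with a low level, since the medium had 218 counts of miR-16-5p among only 1438 miRNA counts. The total also differed in miR-122-5p, with 7 counts in StemPRO and 93988 of 203755 in FBS-1. Without miR-122-5p in the total, the 5 members together held 16.2% in StemPRO and 9.81% in SBI-dFBS-1, the highest serum-based sample. With it these shares were 16.1% and 3.14%.

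miR-103a-3p held 0.497% and 0.679% of the counts in the FBS samples, 0.238% and 0.245% in those of SBI-dFBS, 0.366% and 0.510% in those of UC-dFBS, 0.119% and 0.427% in those of UF-dFBS, and 0.695% in StemPRO. Both lots of SBI-dFBS were below FBS and UC-dFBS. miR-107 held 0.0559% and 0.0868% in the FBS samples, 0.0842% and 0.0734% in those of SBI-dFBS, 0.0788% and 0.156% in those of UC-dFBS, 0.143% and 0.107% in those of UF-dFBS, and 0.0695% in StemPRO. Its samples overlapped between FBS and UC-dFBS, although within a serum its share in UC-dFBS was 1.41 (Sigma) and 1.80 (Gibco) times that in FBS, while both UF-dFBS values were above those of FBS, with wide intervals of 0.0654 to 0.311% and 0.0188 to 0.602%. The shares of miR-15a-5p and miR-15b-5p were at most 0.0579% in the serum-based media. In UF-dFBS, counts of 0 allow shares of up to 0.0714% in UF-dFBS-1 and 0.320% in UF-dFBS-2, so that a lower share than in FBS was not detectable at this depth.

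**Figure D3:**
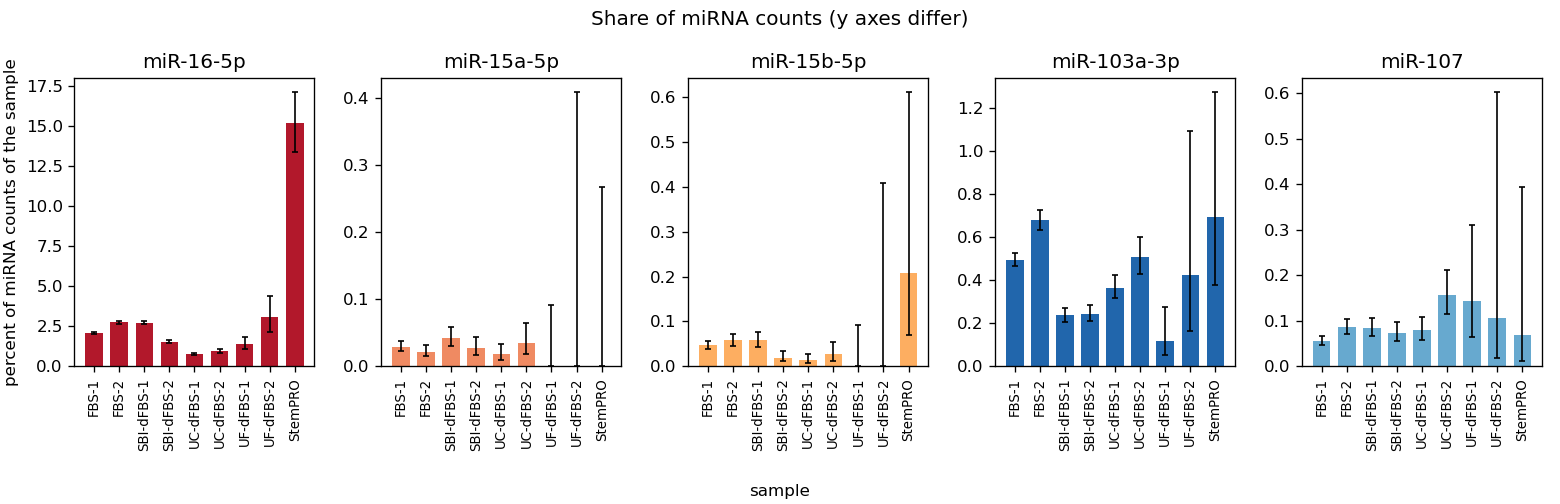
Percent of the miRNA counts of each sample that the 5 miRNAs held, with Wilson 95% confidence intervals. The y axes differ between panels. miR-16-5p ranges from 0.778% in UC-dFBS-1 to 15.2% in StemPRO, and the intervals of the rarer miRNAs widen in UF-dFBS and StemPRO, where the total counts are low.

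In the edgeR test of the shares, with the same samples and filter and the miRNA total as library size, none of the 5 was called in SBI-dFBS, where 9.82% of the 163 miRNAs were called in either direction. None was called in UC-dFBS, where 0.613% were, in UF-dFBS against FBS, where 11.0% were, or in UF-dFBS against UC-dFBS, where 9.2% were. DESeq2 with miRNA totals as size factors called 0 of the 5 in each comparison. Of the 163 miRNAs it called 17, 3, 9 and 6 lower and 3, 1, 12 and 10 higher in the same order. At an unadjusted p under 0.05 in edgeR, the number of members was 0, 1, 1 and 1 in the same order, beside 42, 12, 34 and 23 of the 163 miRNAs. In UC-dFBS the member was miR-16-5p, with a change of share of -1.49 on the log2 scale (SE 0.54, edgeR adjusted p = 0.304). With the serum as a block in the 6 samples of the Sigma and Gibco sera, the change was -1.47 and passed the threshold (edgeR adjusted p = 0.000917). In UF-dFBS against FBS the member was miR-15b-5p, with counts of 0 in UF-dFBS (edgeR adjusted p = 0.205). Between UC-dFBS and UF-dFBS the share of miR-16-5p changed by 1.35 (SE 0.56, edgeR adjusted p = 0.205), and with the block by 1.24 (edgeR adjusted p = 0.0107). Of all miRNAs, 9 and 24 were called in the 6 samples with the block, and 1 and 16 in the same samples without it, a fit chosen after seeing the data in which miR-16-5p was called in neither comparison (edgeR adjusted p = 0.285 and 0.235).

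For miR-103a-3p the change of share was -1.29 in SBI-dFBS (edgeR adjusted p = 0.201) and -1.43 in UF-dFBS (edgeR adjusted p = 0.292) against FBS. For miR-107 it was 0.71 in UC-dFBS (edgeR adjusted p = 0.791) and 0.89 in UF-dFBS (edgeR adjusted p = 0.521). In this test the median over all miRNAs was -0.44 for SBI-dFBS, -0.43 for UC-dFBS and -0.71 for UF-dFBS, with 13 miRNAs called lower and 3 higher, 1 and 0, and 8 and 10. Without miR-122-5p in the total these medians were 0.62, 0.11 and -0.15, with 5 lower and 15 higher, 0 and 0, and 6 and 14. The members together held 3.15 ± 0.636% of the miRNA counts in FBS, 2.52 ± 0.881% in SBI-dFBS, 1.46 ± 0.292% after ultracentrifugation and 2.65 ± 1.39% after ultrafiltration (SD, n = 2 each). In StemPRO they held 16.1% (Wilson 95% confidence interval 14.3 to 18.1%). miR-16-5p made up 76.7% and 76.5% of the counts of the 5 in the FBS samples, 62.0% and 56.4% in those of UC-dFBS, and between 80.7% and 94.0% in the other samples.

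Ratios between members within a sample need no normalization. The ratio of miR-16-5p to miR-103a-3p counts was 4.16 and 4.05 in the FBS samples, 11.4 and 6.25 in those of SBI-dFBS, 2.12 and 1.84 in those of UC-dFBS, 11.8 and 7.25 in those of UF-dFBS, and 21.8 in StemPRO. It was thus lower in UC-dFBS and higher in SBI-dFBS than in FBS, with no overlap of samples. With 2 samples against 2 the smallest p that an exact permutation test allows is 0.333, and this contrast was singled out after the values had been seen. The exact 95% interval was 4.78 to 37.7 in UF-dFBS-1, 2.55 to 28.4 in UF-dFBS-2 and 11.6 to 46.1 in StemPRO. The planned comparison of UF-dFBS with the other 6 serum-based samples gave a log2 difference of 1.18 (exact two-sided permutation test, p = 0.143, adjusted p = 0.286 over 2 ratios), where the smallest p of this design is 0.0714.

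The ratio of miR-103a-3p to miR-107 was 8.88 and 7.82 in the FBS samples, 2.82 and 3.33 in those of SBI-dFBS, 4.65 and 3.27 in those of UC-dFBS, 0.833 and 4 in those of UF-dFBS, and 10 in StemPRO. The FBS ratios were above those of all depleted sera, which overlapped each other. The ratio rests on 5 and 6 counts in UF-dFBS-1 and on 4 counts and 1 count in UF-dFBS-2. The exact interval was 0.201 to 3.28 in UF-dFBS-1, below both FBS values. In UF-dFBS-2 it was 0.396 to 197 and held both FBS values, so that a difference from FBS was not detectable there. UF-dFBS differed from the other 6 serum-based samples by -1.34 on the log2 scale (exact two-sided permutation test, p = 0.286, adjusted p = 0.286). The ratio of miR-15b-5p to miR-15a-5p was 1.60 and 2.67 in the FBS samples, 1.35 and 0.706 in those of SBI-dFBS, and 0.778 in both UC-dFBS samples. The intervals in UC-dFBS reached from 0.246 to 2.35, so that a difference from FBS-1 was not detectable at this depth. The ratio of FBS-2 lay above this range, but its own interval of 1.69 to 4.32 overlapped with it. The counts of 0 in UF-dFBS left no ratio to test.

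**Figure D4:**
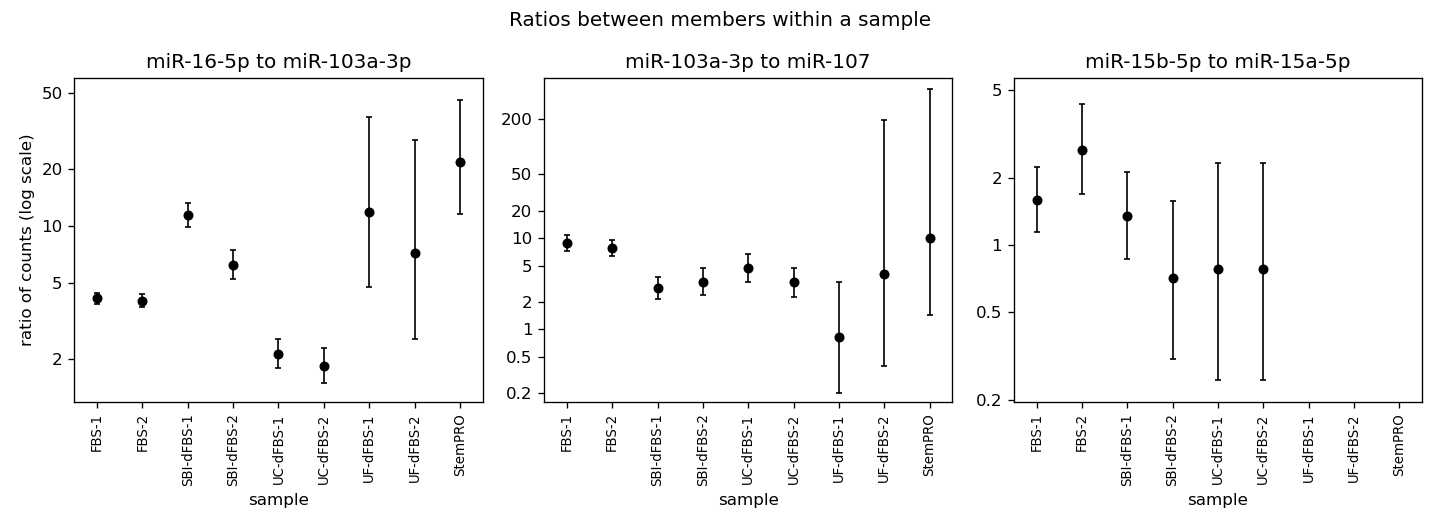
Ratio of counts (log scale) of miR-16-5p to miR-103a-3p, miR-103a-3p to miR-107 and miR-15b-5p to miR-15a-5p in each sample, with exact 95% intervals. The first ratio is 4.16 and 4.05 in FBS, above 6 in SBI-dFBS and below 2.2 in UC-dFBS. No point is drawn for miR-15b-5p to miR-15a-5p in UF-dFBS and StemPRO, where miR-15a-5p had 0 counts.

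The sera were compared over their 3 samples each, with the medium as a term in the edgeR fit. The 3 samples of a serum were made from 1 lot, so that the p-values do not measure the spread between lots of a supplier. miR-15a-5p and miR-15b-5p did not reach 10 counts in at least 3 of these 6 samples, so that 3 members were tested. None of the 3 was called lower in the Gibco serum, where 35.2% of the 105 miRNAs tested were, and 1 of the 3 had an unadjusted p under 0.05, beside 48 of the 105. The changes were -0.64 for miR-103a-3p (SE 0.29, edgeR adjusted p = 0.0681), -0.58 for miR-16-5p (SE 0.35, edgeR adjusted p = 0.171) and -0.46 for miR-107 (SE 0.38, edgeR adjusted p = 0.340), beside a median of -0.62. Without the UF-dFBS samples miR-16-5p and miR-103a-3p passed the threshold, at -0.84 and -0.73 (edgeR adjusted p = 0.00541 and 0.00562). In that fit 50 of the 103 miRNAs tested were called lower and 5 higher, and the median was -0.73. With the miRNA total as library size the direction was opposite for all 3 members, at 0.53, 0.55 and 0.72, and of all miRNAs 1 was lower and 21 were higher in the Gibco serum, in place of 37 and 2.

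Other miRNAs of these families and the opposite arms of their precursors were looked for by name. Of 16 such miRNAs, 10 were in the tables and 2 passed the filter, while the other 8 had at most 6 counts in any sample. miR-424-5p, which shares the seed of miR-16, had 21 and 11 counts in the FBS samples, 11 and 5 in those of SBI-dFBS, 6 and 2 in those of UC-dFBS, 1 in each UF-dFBS sample and 0 in StemPRO. miR-195-5p, which has the same seed, had 18 and 12 counts in the FBS samples, 3 and 7 in those of SBI-dFBS, 6 and 0 in those of UC-dFBS, and 0 in UF-dFBS and StemPRO. Both were thus at far fewer counts than miR-16-5p. Per spike-in, miR-424-5p was at 4.34 and 1.48 in the FBS samples and at 1.22 and 1.32 in those of SBI-dFBS. For miR-195-5p these levels were 3.72 and 1.61 in FBS and 0.332 and 1.85 in SBI-dFBS, so that its samples overlapped. In SBI-dFBS neither was called (edgeR adjusted p = 0.313 and 0.244). In UC-dFBS both were called lower per spike-in, with log2 changes of -2.23 and -2.51 (edgeR adjusted p = 0.0418 and 0.0296). In UF-dFBS both were also called lower (edgeR adjusted p = 5.51e-07 and 3.33e-08).

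miRNAs with a level pattern like that of a member were sought by Pearson's r of log2(spike-in normalized count + 0.1) over the 8 serum-based samples, among the miRNAs with at least 10 counts in at least 4 of them. The samples share the course of depletion, and the median r over all these miRNAs was between 0.957 and 0.974 for the 5 members, so that the values are a description. The most similar were miR-93-5p (0.998) and miR-186-5p (0.997) for miR-16-5p, and let-7b-5p (0.999) and miR-30a-5p (0.999) for miR-103a-3p. For miR-107 they were miR-181b-5p (0.998) and miR-494-3p (0.997), for miR-15a-5p miR-148b-3p (0.997) and miR-152-3p (0.997), and for miR-15b-5p miR-17-5p (0.990) and miR-186-5p (0.984). Between members r was from 0.949 to 0.990. Each member had a higher r with its closest miRNA of another family than with any member. For miR-15b-5p these values were 0.990 with miR-17-5p and 0.989 with miR-16-5p. The closest outside miRNA was picked from all candidates and the closest member from only the few other members. The comparison therefore cannot show whether members are less alike than other miRNAs.

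As miR-16 is abundant in red cells, a list of 4 other miRNAs of red cells was set beside it, and all 4 were present in the tables. Their summed level was 245.5 and 286 spike-in normalized counts in the FBS samples, 176 and 131 in those of SBI-dFBS, 15.5 and 19.3 in those of UC-dFBS, 0.634 and 0.916 in those of UF-dFBS, and 0.296 in StemPRO. Set against FBS, the mean sum was at 57.7% in SBI-dFBS, 6.55% after ultracentrifugation and 0.292% after ultrafiltration. For miR-16-5p these values were 38.3%, 7.27% and 0.171%. Set against FBS-2 alone, the means were at 53.6%, 6.08% and 0.271% for the list, beside 55.4%, 10.5% and 0.248% for miR-16-5p. Set against FBS-1 alone, the UC-dFBS means were at 7.09% for the list and 5.55% for miR-16-5p. In SBI-dFBS and in UC-dFBS the order of the list and miR-16-5p thus depended on the FBS sample. miR-451a, the defining miRNA of red cells, had 348 and 243 counts in the FBS samples, 296 and 172 in those of SBI-dFBS, 25 and 11 in those of UC-dFBS, 6 and 2 in those of UF-dFBS and 1 in StemPRO. The ratio of miR-16-5p to miR-451a counts was between 5.45 and 22.5 in the serum-based samples and 218 in StemPRO. miR-486-5p, the most abundant of the list, had 612 and 1766 counts in the FBS samples, 1194 and 227 in those of SBI-dFBS, 69 and 120 in those of UC-dFBS, 27 and 20 in those of UF-dFBS and 29 in StemPRO, where it made up 0.268 of the summed 0.296. miR-144-3p was at 0 in both UF-dFBS samples and miR-144-5p at 0 in UC-dFBS-2, UF-dFBS-2 and StemPRO. Lists of 4 miRNAs of white cells and platelets, 2 of liver and 2 of endothelium were all present. In SBI-dFBS their means were at 16.4%, 76.2% and 8.21% of FBS. In UC-dFBS they were at 9.26%, 27.8% and 14.0%, and in UF-dFBS at 0.0388%, 0.257% and 0.0107%. With FBS-2 alone as reference, the means were at 34.1%, 191.3% and 11.2% in SBI-dFBS. They were at 19.2%, 69.8% and 19.2% after ultracentrifugation, and at 0.0804%, 0.646% and 0.0146% after ultrafiltration. As the UC-dFBS and UF-dFBS means hold samples of both sera, these are not amounts left within a serum. The part of these cell sources in the levels of the 5 miRNAs was not tested.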

How the data were processed

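Small RNA was sequenced by a service provider from 9 EV preparations with a kit that adds unique molecular indices. Per the methods, the authors collapsed reads with full-length indices, removed spike-in, adapter, ribosomal and mitochondrial reads, and mapped the rest with Bowtie2 2.2.2 after trimming with cutadapt 1.11, to mature miRBase sequences and then to a genome (GRCh37 per the submitters' notes). The deposited counts are whole reads per miRNA without normalization. The other deposited table holds a signal normalized by spike-ins, the count divided by the slope of a fit to external spike-ins. Within a sample the ratio of both was constant, with a largest deviation of 1.98e-06%, and served as library size.

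The 5 miRNAs, the lists and the tests were chosen with earlier results of these data known. The miRNAs given singly are the members, their seed or precursor relatives, the 2 most similar miRNAs of each member and miRNAs of the marker lists. Groups were taken from the sample labels. The quasi-likelihood test of edgeR 4.0.16 (R 4.3.3) was run with p adjusted by Benjamini-Hochberg. DESeq2 1.42.0, TMM, other library sizes, filters and sets of samples were alternatives. Ratios used exact permutation tests in scipy 1.17.1. StemPRO, with 1 sample, was not tested.

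The pairing of FBS, UC-dFBS and UF-dFBS comes from the shared sera, as the labels name the supplier. Deviations from the medium mean of samples of the same serum correlated by 0.502 (FBS and UC-dFBS), 0.176 (FBS and UF-dFBS) and 0.0234 (UC-dFBS and UF-dFBS) across 163 miRNAs, which are not independent. On simulated data for UF-dFBS against FBS with 163 miRNAs, 50, 75 and 82 of 82 miRNAs lowered by 2, 3 and 6 on the log2 scale were found, with 2, 2 and 0 false calls. The mature sequences and the tables of other small RNAs by locus, apart from their total counts, were not used here.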

Additional observations from a re-analysis of the deposited data

Results flagged for a closer look

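The ratio of the shares of miR-16-5p among the miRNA counts of UF-dFBS and FBS was below 1 in the Sigma serum and above 1 in the Gibco serum. In UF-dFBS the share was 0.679 times that in FBS in the Sigma serum and 1.13 times that in the Gibco serum. The latter rests on 29 counts in UF-dFBS-2, whose interval of 2.16 to 4.41% holds the 2.75% of FBS-2, so that no difference was detectable at this depth, while the interval of UF-dFBS-1, 1.09 to 1.81%, lies below the 2.07% of FBS-1. The share of miR-15a-5p in UC-dFBS was 0.602 times that in FBS in the Sigma serum and 1.58 times that in the Gibco serum, with 9 counts in each UC-dFBS sample. Their intervals, 0.00933 to 0.0337% and 0.0180 to 0.0651%, hold the 0.0294% and 0.0217% of FBS of the same serum, so that neither difference was detectable at this depth. Each serum gave 1 sample per medium, and how the sera differ in this was not tested.

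miR-16-5p held 15.2% of the miRNA counts in StemPRO, a sample that enters no test. This is more than 3 counts of 1438 would give and more than the share in any serum-based sample.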

How the results depend on the processing

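Depth limits the values of UF-dFBS and StemPRO, in which miR-15a-5p, miR-15b-5p and miR-107 had between 0 and 6 counts. The 5 members remained called lower in UF-dFBS, against FBS and against UC-dFBS, with DESeq2 on spike-in size factors, without a filter on low counts, with the replicate block and without each sample in turn, where the lone sample left in a medium was taken to vary like those of the other media. Most miRNAs tested were called lower in these comparisons as well. They were 158 and 151 of 163 with DESeq2, 277 and 183 of 419 without a filter, and 155 and 150 of 158 with the block. In UC-dFBS against FBS, 154 of 158 were called lower with the block and 136 in the same 6 samples without it. The fits depend on the scaling, and beyond its construction the cause was not tested.

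With TMM the numbers of members called lower in SBI-dFBS, UC-dFBS and UF-dFBS against FBS and in UF-dFBS against UC-dFBS were 0, 0, 0 and 0 in place of 1, 5, 5 and 5. They were 0, 0, 0 and 0 with the size factors of DESeq2, and 0, 0, 2 and 0 with the total of all small RNAs as library size. The changes with the latter were not all smaller, at -4.52 for miR-103a-3p in SBI-dFBS and -4.14, -3.94 and -3.05 for miR-16-5p, miR-15b-5p and miR-103a-3p in UC-dFBS. Of all miRNAs, 7, 0, 10 and 6 were called lower with TMM, 8, 1, 9 and 6 with the size factors of DESeq2 (2, 1, 14 and 10 higher) and 2, 0, 99 and 0 with the small RNA total, in place of 72, 148, 160 and 153. With TMM, 9 miRNAs were higher in UF-dFBS than in UC-dFBS. A minimum of 50 counts, which leaves 97 miRNAs and not miR-15a-5p, gave 91 lower in UC-dFBS, 95 in UF-dFBS and 95 against UC-dFBS. No filter gave 277 of 419 in UF-dFBS. With TMM and with the size factors of DESeq2, the sign turned for SBI-dFBS in miR-16-5p (0.49 and 0.35), miR-15a-5p (1.09 and 0.92), miR-15b-5p (0.21 and 0.021) and miR-107 (0.87 and 0.76). It also turned for UC-dFBS in miR-15a-5p (0.25 and 0.053) and miR-107 (1.04 and 0.86), for UF-dFBS in miR-107 (0.97 and 0.91) and for UF-dFBS against UC-dFBS in miR-16-5p (0.81 and 0.86). For miR-107 in the latter it turned with DESeq2 alone (0.048). None of these passed the threshold.

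Without each sample in turn, the number of members called lower was 0 to 2 in SBI-dFBS and 3 to 5 in UC-dFBS, and that of all miRNAs was 8 to 77 and 56 to 151. The lowest counts came without SBI-dFBS-1 (8) and without UC-dFBS-2 (56). Without FBS-1 they were 21 and 87, and without SBI-dFBS-2 41 were called in SBI-dFBS. In SBI-dFBS miR-15b-5p was called as well without FBS-2, UF-dFBS-1 or UF-dFBS-2. In addition, miR-107 in UC-dFBS was not called without a filter (adjusted p = 0.0522). The change of miR-15a-5p in SBI-dFBS ranged from -1.53 to 0.24. Relative to FBS the sum of the 5 was 26.8 to 50.7% in SBI-dFBS, 0.118 to 0.224% in UF-dFBS and 0.189 to 0.358% in StemPRO, each highest without FBS-1. The UF-dFBS mean then still held both sera, and within the Gibco serum 0.236% was left in UF-dFBS. For the marker lists with miR-16-5p, the total and the bounds, the values without an FBS sample were chosen after seeing the data. So were the medians with miRNAs at 0 set to their bound for all miRNAs.

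For the shares, the 6 samples of both sera with the replicate block called 1 member in UC-dFBS against FBS and 1 in UF-dFBS against UC-dFBS, in place of 0 and 0, and in both it was miR-16-5p. It gave 9, 33 and 24 miRNAs called in UC-dFBS and UF-dFBS against FBS and in UF-dFBS against UC-dFBS, in place of 1, 18 and 15. The same 6 samples with no block, chosen after seeing the data, gave 0 members and 1, 19 and 16 miRNAs. The block changed no other call of a member. DESeq2 with miRNA totals called 4 in UC-dFBS. Without miR-122-5p, the most abundant miRNA, in the total, 0 were called in UC-dFBS. The share then turned for miR-16-5p in SBI-dFBS (0.89) and UF-dFBS (0.18), for miR-15b-5p in SBI-dFBS (0.62), and for miR-15a-5p (0.43) and miR-103a-3p (0.11) in UC-dFBS. Without each sample, 1 to 20 miRNAs were called for SBI-dFBS, 0 to 1 for UC-dFBS, 7 to 20 for UF-dFBS and 4 to 16 in UF-dFBS against UC-dFBS. The change of share then ranged for miR-16-5p from -0.66 to 0.17 in SBI-dFBS and from -0.78 to 0.36 in UF-dFBS, for miR-15b-5p and miR-107 in SBI-dFBS from -1.41 to 0.14 and from -0.14 to 0.49, for miR-15a-5p in UC-dFBS from -0.53 to 0.41 and for miR-107 between UC-dFBS and UF-dFBS from -0.24 to 0.75.

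The members' mean share of counts without miR-122-5p in the total was 5.03% in FBS, 8.46% in SBI-dFBS, 3.39% after ultracentrifugation and 5.21% after ultrafiltration. In StemPRO this share was 16.2%. Of all small RNA counts the members held 0.439%, 0.0406%, 0.0330% and 0.0211% in the same media and 3.47% in StemPRO. Between the sera, without each sample in turn or without UF-dFBS, 0 to 2 members and 0 to 53 miRNAs were called lower. Without FBS-1 or FBS-2 no miRNA was called, and without UC-dFBS-1 or UC-dFBS-2 2 were. With the miRNA total as library size 1 miRNA was called lower, and the changes of miR-16-5p, miR-103a-3p and miR-107 were 0.53, 0.55 and 0.72.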
